A study of Mus musculus with 27 samples.

Results

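Transcripts of 55 cell cycle and DNA replication genes were followed through weight gain, weight loss and weight regain in mouse epididymal white adipose tissue, the large visceral fat pad of the male abdomen. The 55 genes were taken by name, and all 55 were in the count table of 43460 gene names and among the 17821 names that passed the filter on low counts. They fall into 14 genes of DNA replication, 26 of mitosis, 7 regulators of the cycle and 8 further proliferation genes.

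All tissue came from C57BL/6N mice, and each of 9 groups had 3 libraries. Mice of the initial group were 5 weeks old and had not entered a diet period. The groups control8, control12 and control16 received normal diet for 8, 12 and 16 weeks, to ages of 13, 17 and 21 weeks. The gain8 group received a high-fat diet (60% of energy from fat) for 8 weeks, to 13 weeks of age. The loss group had been fed high-fat diet and then returned to normal diet for 4 weeks, and was 17 weeks old after 12 weeks of treatment. The maintenance group had spent 8 weeks on normal diet after high-fat feeding and was 21 weeks old. The regain group was fed high-fat diet again for 4 weeks after weight loss, and the gain4 group received 4 weeks of high-fat diet, both at 21 weeks of age. The label of gain4 does not say which diet filled its first 12 weeks. The labels do not say whether the 3 libraries of a group came from separate animals, so the p-values measure the spread between these libraries, which may be technical.

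A dividing cell first licenses and copies its DNA and later condenses and separates the chromosomes. The Mcm proteins form the helicase that opens the double helix, Cdt1 and Cdc6 load it, Pcna is the sliding clamp of the polymerases, and Rrm1, Rrm2, Tk1 and Tyms supply nucleotides. Cyclin B with Cdk1 drives entry into mitosis, the kinetochore and spindle proteins attach and move the chromosomes, and Cdc20 and Ube2c help to end the division. E2F factors switch on the replication genes, and Foxm1 and Mybl2 act on the later mitotic genes. Mature fat cells do not divide as a rule, whereas precursor cells, endothelial cells and macrophages of the fat pad can divide in obesity.

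The libraries held 26479773 to 32728594 counts. Values below are counts scaled to a common library size with TMM factors (CPM), and differences are log2 fold changes with standard errors (SE) from edgeR's quasi-likelihood test over all genes, called at a Benjamini-Hochberg adjusted p under 0.05. The libraries loss 1, control12 3 and maintenance 3 were treated as standing apart, and the counts of called genes were recomputed without them. They were set by hand and not by a numerical rule. The TMM factor was lowest in maintenance library 3 (0.814), and 15 libraries carried more than 1000 CPM of Lars2 while 12 carried less. Adipocyte markers were high in every library (summed CPM of 12 genes from 9795 to 64725), with the lowest sum in loss library 1. Macrophage markers differed between the groups. The summed level of 17 macrophage genes was 1729 to 3020 CPM in the initial and control libraries, 5821 to 7085 in gain8, 5642 to 14701 in loss, 3416 to 6012 in gain4, 6101 to 12260 in regain and 1081 to 4361 in maintenance. The summed level of 11 precursor and fibroblast markers was 3346 to 5102 CPM in the initial and control libraries, 4234 to 6955 in gain8, 3620 to 6495 in loss, 3448 to 6341 in gain4, 5388 to 6005 in regain and 2697 to 5992 in maintenance. The median gene of the 11 did not follow this sum. Against age-matched controls its log2 fold change was -0.53 in gain8, 0.002 in loss, -0.39 in gain4, -0.20 in regain and -0.35 in maintenance. In gain8 2 of the 11 were called higher and 1 lower, and in regain 3 and 0. The summed level of 8 endothelial markers was 486 to 2430 CPM in the initial and control libraries and 333 to 1899 in the others. Of the 8, 0 were called in the 8 comparisons of 2 groups. The sum of 12 liver markers was 2184 to 7145 CPM in the initial and control libraries, 1681 to 8899 in maintenance, 437 to 1169 in gain4 and 23.1 to 374 in gain8, loss and regain. This sum did not follow the median gene of the list. Against age-matched controls the median log2 fold change of the 12 was 8.02 in maintenance, where 0 were called. It was 1.25 in loss, 1.12 in regain, 0.92 in gain4 and -2.69 in gain8. The part of these cell types in the results that follow was not tested. In bulk tissue, more dividing cells and more cell cycle RNA per dividing cell cannot be told apart. Of the germ cell markers, Sycp3 lay between 3.02 and 14.5 CPM in the initial and control libraries and between 11.8 and 45.2 CPM in the others. The other germ cell genes did not follow it as a list. Against age-matched controls the median log2 fold change of the 8 tested was 2.13 in gain8 and 1.81 in maintenance. It was -0.62 in gain4, -1.92 in regain and -3.90 in loss. The summed germ cell level was highest in maintenance library 3 and gain8 library 2 (84.9 and 82.7 CPM), while the meiotic genes Sycp1 and Stra8 and the germ cell gene Dazl stayed at or below 0.426 CPM in all libraries. Both sums exceed the highest Sycp3 level of 45.2 CPM, so further genes of the germ cell list also added to them.

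The start regions of 4 genes are printed below, with matches to 4 short motifs marked where present. Cdt1 and Spc25 had the smallest adjusted p of the replication and the mitosis genes with a window in gain8, Birc5 that of the mitosis genes in loss, and Mcm5 holds an E2F motif. RefSeq windows (GRCm38.p6) were found for 45 of the 55 genes, and the 250 bases before the start were searched on both strands for the E2F cores TTCCCGC and TTTGGCGC, the CHR element TTTGAA and the CCAAT box CCAAT. Capitals mark matches, in either orientation. Cdt1 lies at chr8:122567765-122568014 (plus strand), Spc25 at chr2:69206214-69206463 (minus), Birc5 at chr11:117848987-117849236 (plus) and Mcm5 at chr8:75109259-75109508 (plus). Mcm5 was added after the motifs had been seen.
Cdt1: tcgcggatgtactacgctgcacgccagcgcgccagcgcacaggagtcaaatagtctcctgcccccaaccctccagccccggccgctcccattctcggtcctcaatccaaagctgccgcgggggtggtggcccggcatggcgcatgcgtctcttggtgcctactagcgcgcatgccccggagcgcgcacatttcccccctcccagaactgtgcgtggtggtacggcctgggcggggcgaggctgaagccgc
Spc25: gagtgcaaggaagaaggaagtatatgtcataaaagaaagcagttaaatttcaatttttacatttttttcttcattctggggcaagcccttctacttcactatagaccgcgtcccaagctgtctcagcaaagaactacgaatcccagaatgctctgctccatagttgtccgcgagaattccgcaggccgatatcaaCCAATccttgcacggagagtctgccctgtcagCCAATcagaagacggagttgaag
Birc5: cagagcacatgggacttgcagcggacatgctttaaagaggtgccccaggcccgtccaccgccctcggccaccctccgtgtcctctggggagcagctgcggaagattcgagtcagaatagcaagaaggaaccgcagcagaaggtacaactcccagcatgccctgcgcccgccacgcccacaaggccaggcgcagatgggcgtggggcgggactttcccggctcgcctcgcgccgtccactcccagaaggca
Mcm5: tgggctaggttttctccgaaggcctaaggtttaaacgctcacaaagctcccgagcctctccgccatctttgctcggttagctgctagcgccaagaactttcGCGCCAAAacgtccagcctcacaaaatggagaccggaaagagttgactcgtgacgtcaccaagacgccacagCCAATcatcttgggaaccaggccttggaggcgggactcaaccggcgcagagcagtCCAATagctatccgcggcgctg
A CCAAT box was present in 32 of 45 windows (71.1%), against 37.5% of the 27025 genes of the table. It occurred in 18 of 23 mitosis windows (78.3%) and 9 of 13 replication windows (69.2%), among them the paired boxes of Spc25 and Mcm5. An E2F core was present in 5 of 13 replication windows (38.5%), those of Cdc6, Mcm5, Mcm6, Mcm7 and Rrm1, and in 0 of 23 mitosis windows, against 4.81% of all genes. The CHR element was present in 13 of 45 windows (28.9%) against 18.3%. The windows of Cdt1 and Birc5 held none of the 4 motifs. These are matches of letters and not measured binding sites, and no match says only that the letters are not in this window. The 10 genes without a window were Tpx2, Aurkb, Pbk, Ccna2, Ccne2, Kif20a, Ccnd1, Mcm4, Foxm1 and Stmn1.

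Across the 9 groups, the second high-fat period held the highest mean CPM for 50 of the 55 genes. The initial group held the lowest for 39 and maintenance for 8. Spc25, Cdc45 and Ccne1 were highest in gain8, E2f1 in gain4 and Mcm7 in the initial group. The ratio of the highest to the lowest group mean was 1.47 for Mcm7, the smallest, and 31.7 for Bub1, a checkpoint kinase of the spindle. In the 4 comparisons of gain8, loss, gain4 and regain with age-matched normal diet, 21 of the 55 genes were called in all 4, 23 in 3, 6 in 2, 3 in 1 (Ccne2, Hmgb2 and Mybl2) and 2 in none (Ccnd1 and Mcm7). Of all genes tested, 12.0% were called higher in gain8, 11.8% in loss, 3.80% in gain4 and 12.5% in regain. The tally of calls per gene and that of highest groups were not made over all genes. The gain4 and regain comparisons share the control16 libraries. Of the 55 genes 0 were called lower in these 4 comparisons, against 9.52%, 8.24%, 2.02% and 9.23% of all genes. The direction was the same within libraries of high and of low Lars2: the median difference in log2 CPM was 1.42 and 2.08 in gain8, 1.71 and 0.89 in loss, 0.81 and 1.16 in gain4, and 2.51 and 1.89 in regain. These values rest on few libraries. Those of gain8 at high Lars2 and of loss and regain at low Lars2 compare 1 library with 1. Their counterparts compare 2 with 2, and the gain4 values 1 with 2 (high) and 2 with 1 (low).

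**Figure D1:**
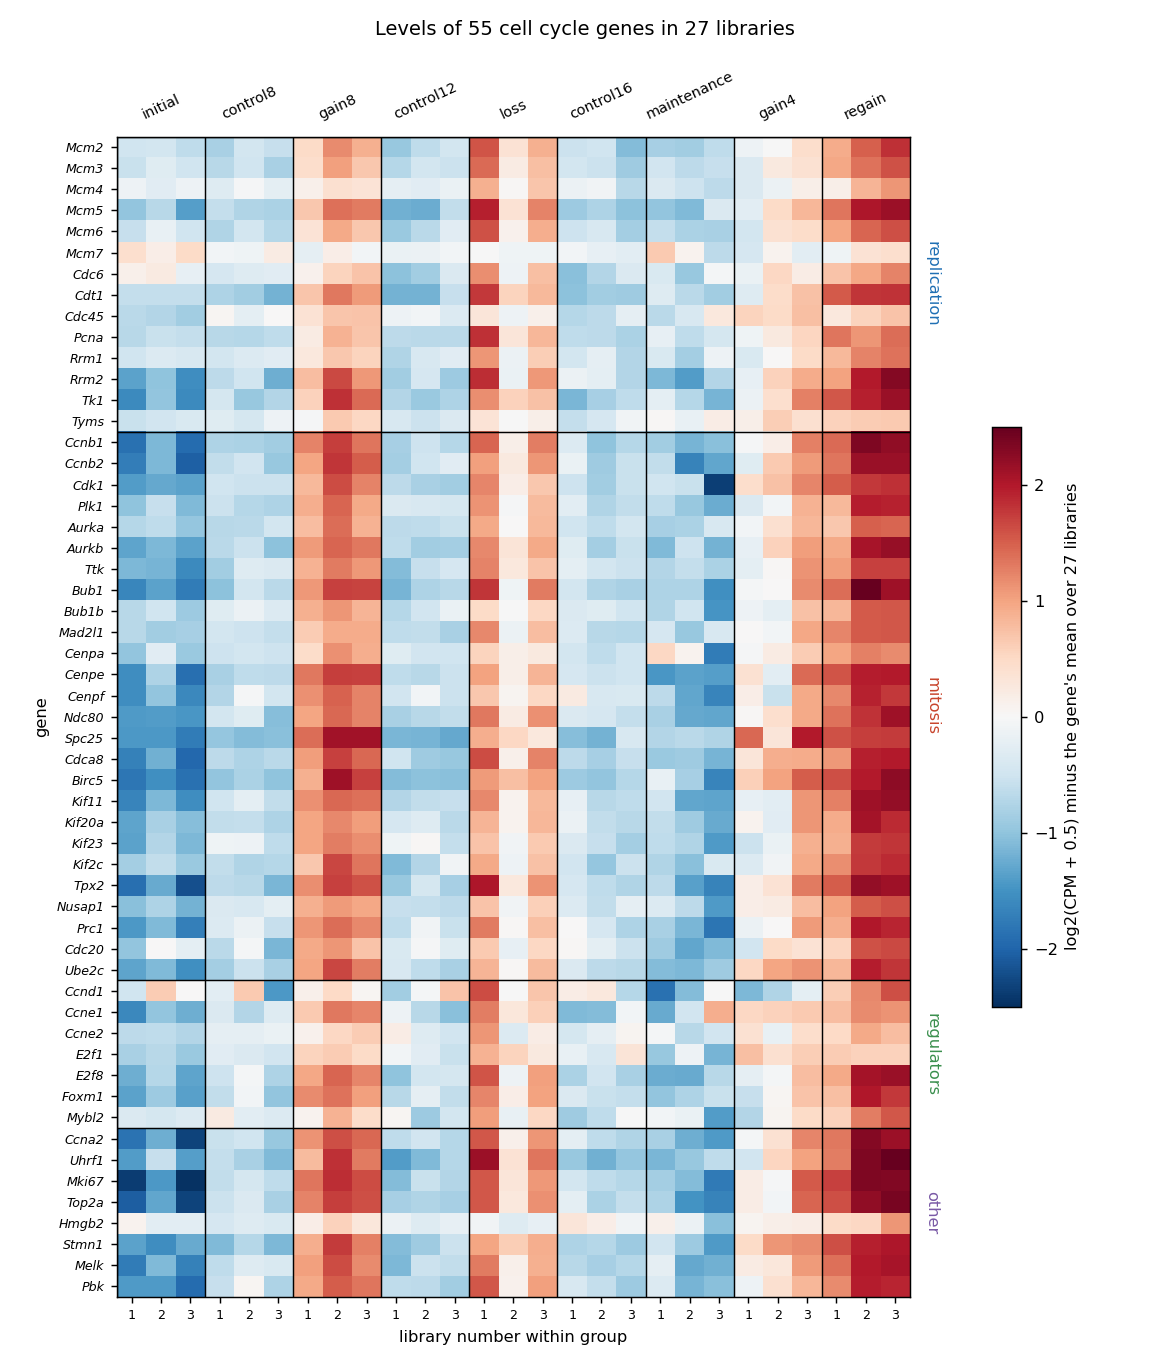
Each row is 1 of the 55 genes, ordered by class, and each column 1 of 27 libraries; colour gives log2(CPM + 0.5) minus the gene's mean over all libraries. Gain8 and regain libraries and loss libraries 1 and 3 are red for nearly all genes. Loss library 2, the lowest of its group for 53 of 55 genes, is much paler. Gain4 library 3 is redder than the other gain4 libraries, and Mcm7 and Ccnd1 do not follow the pattern.

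After 8 weeks of high-fat diet, 49 of the 55 genes were higher than in age-matched controls and 0 were lower. Over all genes tested 12.0% were higher and 9.52% lower. The median log2 fold change was 1.90 over the 55 genes and -0.02 over all genes. All 26 mitosis genes rose. Spc25, a subunit of the kinetochore complex that binds microtubules, stood at 11.8, 19.6 and 19.7 CPM in gain8 and 1.91, 1.72 and 1.78 CPM in control8. The groups were far apart, and the log2 fold change of 3.24 ± 0.34 (adjusted p = 1.6e-05) was the largest of the 55. Birc5, which encodes survivin of the chromosomal passenger complex, stood at 8.32, 20.1 and 15.03 CPM against 1.91, 2.24 and 1.88 CPM, a log2 fold change of 2.85 ± 0.36 (adjusted p = 9.26e-05). Ube2c, the ubiquitin-conjugating enzyme of the anaphase-promoting complex, and Cenpe, a kinetochore motor, rose by 2.24 ± 0.29 and 2.49 ± 0.37. Ccnb1, cyclin B1, rose by 2.55 ± 0.41 and its partner Cdk1 by 1.90 ± 0.37.

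Of the 14 replication genes, 11 rose after 8 weeks of high-fat diet. Cdt1 stood at 10.4, 16.5 and 13.8 CPM in gain8 and 3.45, 3.23 and 2.48 CPM in control8, a log2 fold change of 2.15 ± 0.31 (adjusted p = 0.000156). Mcm5 was at 19.0, 31.2 and 29.5 CPM against 7.53, 6.70 and 6.55 CPM, a log2 fold change of 1.94 ± 0.35. Tk1, thymidine kinase, and Rrm2, the regulated subunit of ribonucleotide reductase, rose by 2.16 ± 0.35 and 2.15 ± 0.45. Mcm3 and Pcna rose less, by 1.44 ± 0.25 and 1.30 ± 0.26. The 3 replication genes without a call were Mcm4 (0.50 ± 0.23, adjusted p = 0.116), Mcm7 (-0.06 ± 0.22) and Cdc6 (0.96 ± 0.35, adjusted p = 0.0572).

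The regulators were divided in gain8. Foxm1, the transcription factor of the mitotic genes, stood at 12.1, 13.7 and 10.9 CPM against 3.15, 4.82 and 2.32 CPM, a log2 fold change of 1.84 ± 0.36 (adjusted p = 0.00135). E2f1, an activator of replication genes, rose by 0.95 ± 0.23, and E2f8 and Ccne1 (cyclin E1) also rose. Ccnd1 (cyclin D1, 0.35 ± 0.53), Ccne2 (0.72 ± 0.31) and Mybl2 (0.70 ± 0.46) were not called. All 8 of the remaining genes rose. Stmn1, which takes microtubules apart, had the smallest adjusted p among them (2.37 ± 0.25, adjusted p = 1.6e-05). Mki67, the proliferation antigen Ki-67, stood at 49.0, 70.0 and 60.4 CPM against 12.2, 13.9 and 12.1 CPM, 4.69-fold higher, and Top2a, topoisomerase II alpha, rose by 2.16 ± 0.39. In the same comparison 14 of 17 macrophage markers were called higher. Gain8 library 2 was the highest of its group for 50 of 55 genes and also had the highest macrophage sum (7085 CPM).

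**Figure D2:**
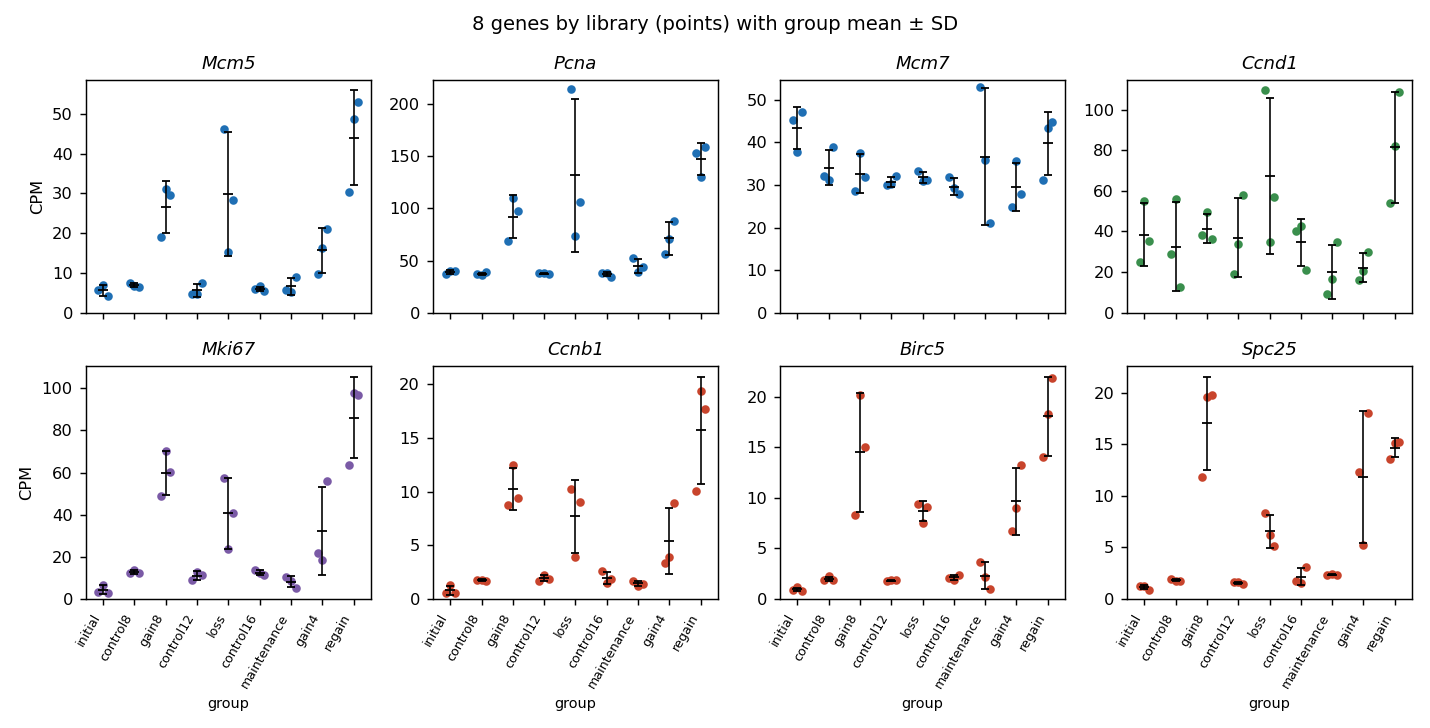
Points are CPM of single libraries (linear axes from 0) for 8 genes in 9 groups, with group mean and SD as bars. Mki67, Ccnb1, Birc5 and Spc25 were low in all initial, control and maintenance libraries, and Mcm7 stayed between 21.1 and 53.1 CPM in all 27.

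After 4 weeks back on normal diet the genes were still above the age-matched controls. In loss, 45 of 55 were higher and 0 lower, against 11.8% higher and 8.24% lower over all genes, with a median log2 fold change of 1.53 (all genes -0.04). Of the replication genes 12 of 14 rose. Pcna stood at 214, 73.8 and 106 CPM in loss and 37.7, 37.6 and 37.2 CPM in control12, a log2 fold change of 1.81 ± 0.26 (adjusted p = 8.27e-05). Every loss library lay above every control, but the 3 differed among themselves. Mcm5 was at 46.1, 15.2 and 28.3 CPM against 4.80, 4.66 and 7.48 CPM (2.40 ± 0.36), and Cdt1 rose by 2.26 ± 0.31. Rrm2 rose by 2.02 ± 0.45. Mcm7 (0.05 ± 0.22) and Cdc45, a part of the moving helicase (0.31 ± 0.22), were not called.

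Of the 26 mitosis genes 22 rose in loss. Birc5 was even across the group, at 9.43, 7.53 and 9.10 CPM against 1.74, 1.83 and 1.83 CPM, a log2 fold change of 2.27 ± 0.36 (adjusted p = 0.000173). Spc25 was at 8.31, 6.22 and 5.16 CPM against 1.63, 1.60 and 1.44 CPM (2.08 ± 0.33). Cdca8, a partner of Birc5, rose by 2.12 ± 0.35 and the kinetochore gene Ndc80 by 2.01 ± 0.34. Ccnb1 and Cdk1 rose by 1.98 ± 0.40 and 1.65 ± 0.37. Cenpa (0.80 ± 0.36), Cenpf (0.90 ± 0.39), Kif23 (0.72 ± 0.36) and Cdc20 (0.67 ± 0.38) were not called. Among the others, Uhrf1, which carries DNA methylation through replication, rose by 2.70 ± 0.46, Stmn1 by 1.69 ± 0.24, Mki67 by 1.88 ± 0.38 and Top2a by 1.95 ± 0.39, while Hmgb2 was at 0.02 ± 0.22. Of the regulators E2f8, Foxm1, Ccne1 and E2f1 rose (2.03 ± 0.49, 1.48 ± 0.36, 1.52 ± 0.47 and 0.89 ± 0.22), and Ccnd1, Ccne2 and Mybl2 were not called.

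Loss library 1 was the highest of its group for 53 of 55 genes and library 2 the lowest for 53. Library 1 also had the highest macrophage sum (14701 CPM, against 6077 and 5642) and the lowest adipocyte sum (9795 CPM). In this comparison 13 macrophage markers were called higher and 1 lower of 17. Without loss library 1, 30 of the 55 genes were called, and without all 3 libraries that stood apart 27. With only loss and control12 in the model 28 were called.

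The loss effect and the gain8 effect, each against its own age-matched controls, were compared as a difference of differences. No gene of the 55 was called, and over all genes 0% were higher and 0% lower. By edgeR 3 of 55 had an unadjusted p under 0.05, and DESeq2 also called 0. The smallest adjusted p, 0.630, was that of Spc25 (-1.16 ± 0.46). The medians were -0.51 over the mitosis genes and 0.16 over the replication genes. Ube2c (-0.91 ± 0.39) and Hmgb2 (-0.72 ± 0.31) had the next smallest adjusted p. Pcna was at 0.51 ± 0.36 and Mcm5 at 0.46 ± 0.49.

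After 8 weeks on normal diet no difference from the controls was called. In maintenance against control16 0 of 55 were called, and over all genes 0% were higher and 0% lower, while 7 of the 55 had an unadjusted p under 0.05 and DESeq2 called 0. The median was -0.31 (all genes 0.02). Mki67 was at 10.3, 8.68 and 5.26 CPM in maintenance and 13.6, 12.1 and 11.5 CPM in control16, a log2 fold change of -0.61 ± 0.38. The classes lay on both sides of 0, with a median of -0.50 over mitosis genes, of which 4 of 26 were positive, and 0.17 over replication genes, of which 10 of 14 were positive. The smallest adjusted p were those of the kinetochore genes Cenpf (-1.25 ± 0.41, adjusted p = 0.105) and Cenpe (-1.12 ± 0.37, adjusted p = 0.108). Pcna was at 0.29 ± 0.25, Mcm5 at 0.13 ± 0.35, Rrm2 at -0.83 ± 0.44, Birc5 at 0.12 ± 0.35, Ccnb1 at -0.46 ± 0.40 and Cdk1 at -0.31 ± 0.37. Maintenance library 3 was the lowest of its group for 30 of 55 genes and had the lowest macrophage sum (1081 CPM).

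Between 5 and 13 weeks of age on normal diet, Pbk, a mitotic kinase, was the 1 gene called (2.09 ± 0.49, adjusted p = 0.0457). It was at 1.11, 1.97 and 0.906 CPM in control8 and 0.398, 0.395 and 0.134 CPM in the initial group. Over all genes 0.359% were higher and 0.365% lower, and 26 of the 55 had an unadjusted p under 0.05. The medians were 0.84 over mitosis genes and -0.04 over replication genes. Mki67 stood at 12.2, 13.9 and 12.1 CPM against 3.26, 6.77 and 3.02 CPM (1.55 ± 0.39, adjusted p = 0.0661). Pcna was flat at 36.6, 36.5 and 38.6 CPM against 36.8, 40.4 and 39.7 CPM. The call of Pbk was lost without any 1 of the 6 libraries, and DESeq2 called 10 of the 55 genes.

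**Figure D3:**
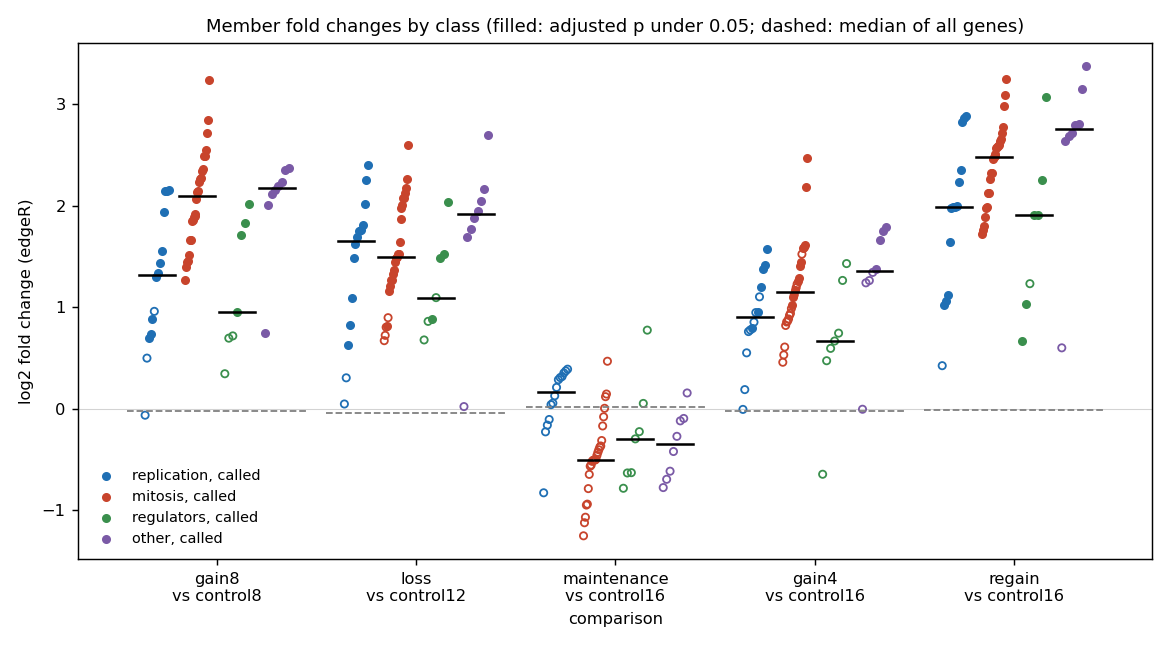
Points are log2 fold changes of the 55 genes against age-matched normal diet in 5 comparisons, coloured by class and filled where called; black lines are class medians and dashed lines the median of all genes. All 26 mitosis genes are filled in gain8 and regain, 12 are filled in gain4, and 0 genes are filled in maintenance.

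After 4 weeks of high-fat diet in the gain4 group, 22 of the 55 genes were higher than in control16 and 0 lower, against 3.80% higher and 2.02% lower over all genes. The median was 1.10 (all genes -0.02), and 47 of 55 had an unadjusted p under 0.05. Spc25 was at 12.3, 5.27 and 18.05 CPM in gain4 and 1.76, 1.57 and 3.07 CPM in control16, a log2 fold change of 2.47 ± 0.33 (adjusted p = 0.00238). Birc5 was at 6.70, 9.03 and 13.2 CPM against 2.06, 1.91 and 2.40 CPM (2.18 ± 0.35). Ube2c and Cdca8 rose by 1.59 ± 0.28 and 1.61 ± 0.34, Cdk1 by 1.58 ± 0.37 and Ccnb1 by 1.45 ± 0.40, among 12 mitosis genes called. Of the replication genes 6 rose: Tk1 (1.58 ± 0.35), Cdt1 (1.42 ± 0.30), Mcm5 (1.38 ± 0.35), Cdc45 (1.20 ± 0.23), Pcna (0.95 ± 0.25) and Tyms (0.79 ± 0.18). Stmn1, Melk, Uhrf1 and Mki67 rose by 1.79 ± 0.24, 1.75 ± 0.46, 1.67 ± 0.44 and 1.37 ± 0.38. Rrm2 (0.95 ± 0.43), Top2a (1.26 ± 0.38, adjusted p = 0.0515) and all 7 regulators were not called, E2f1 at 0.67 ± 0.22 (adjusted p = 0.075) and Ccnd1 at -0.64 ± 0.53.

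The gain4 libraries were uneven. Library 3 was the highest of the group for 50 of 55 genes. Mki67 was at 21.7, 18.5 and 56.2 CPM, so that library 3 stood near the lowest regain library (63.7 CPM). Library 3 also had the highest macrophage sum of the group, 6012 CPM against 3796 and 3416, and 3 of 17 macrophage markers were called higher. The number called of the 55 was 8 without gain4 library 3, 0 without control16 library 1 and 2 without control16 library 2. Without control16 library 1, 44 genes still had an unadjusted p under 0.05 at a median of 1.18. DESeq2 called 34, limma on log2(FPKM + 1) called 9, and edgeR on only the compared groups called 0 (38 at an unadjusted p under 0.05).

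After the second exposure, 52 of the 55 genes were higher in regain than in control16 and 0 lower, against 12.5% higher and 9.23% lower over all genes. The median was 2.33 (all genes -0.015). All 26 mitosis genes rose. Birc5 was at 14.1, 18.3 and 21.9 CPM in regain and 2.06, 1.91 and 2.40 CPM in control16, a log2 fold change of 3.09 ± 0.36 (adjusted p = 2.33e-05). Bub1 rose by 3.25 ± 0.53, Ccnb1 by 2.99 ± 0.41, Spc25 by 2.78 ± 0.34, Ndc80 by 2.58 ± 0.34, Cdk1 by 2.49 ± 0.38 and Ube2c by 2.32 ± 0.29. Of the replication genes 13 of 14 rose, led by Tk1 (2.89 ± 0.36), Mcm5 (2.86 ± 0.37) and Cdt1 (2.82 ± 0.32). Pcna was at 152, 130 and 159 CPM against 38.4, 37.8 and 34.5 CPM (1.99 ± 0.26), and Rrm2 rose by 2.35 ± 0.45.

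Of the regulators 6 of 7 rose in regain, E2f8 by 3.08 ± 0.51, Foxm1 by 2.26 ± 0.37 and E2f1 by 0.67 ± 0.22. Stmn1 had the smallest adjusted p of the 55 (2.71 ± 0.25, 7.01e-06), Uhrf1 rose by 3.38 ± 0.47 and Top2a by 2.69 ± 0.40. Mki67 reached 63.7, 97.7 and 96.9 CPM against 13.6, 12.1 and 11.5 CPM, 6.94-fold higher. The genes not called were Mcm7 (0.43 ± 0.22), Ccnd1 (1.23 ± 0.54) and Hmgb2 (0.60 ± 0.22, adjusted p = 0.0503). Between 50 and 52 genes were called whichever single library was left out. In the same comparison 15 macrophage markers of 17 were called higher and 1 lower, and 6 of 12 adipocyte markers were called lower. Regain library 1 had the highest macrophage sum of its group (12260 CPM, against 6101 and 10331) and was the lowest for 53 of 55 genes.

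Against the same age left on normal diet after the first gain, 53 of 55 genes were higher in regain and 0 lower, with 13.9% higher and 13.0% lower over all genes. The median was 2.74 (all genes -0.07). Ndc80, Ube2c and Cenpe rose by 3.52 ± 0.36, 2.87 ± 0.30 and 3.63 ± 0.39, Stmn1 by 2.81 ± 0.25, Mki67 by 3.41 ± 0.41 and Top2a by 3.46 ± 0.41. Mcm2, Cdt1 and Mcm3 rose by 2.34 ± 0.29, 2.45 ± 0.31 and 1.93 ± 0.25, and E2f8 and Foxm1 by 3.71 ± 0.53 and 2.55 ± 0.37. Mcm7 and Ccne1 were not called. In the same comparison 15 of 17 macrophage markers were called higher and 8 of 12 adipocyte markers lower. This comparison and that with control16 share the regain libraries.

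The 4-week exposures were compared directly, at the same age. Of the 55 genes 33 were higher in regain than in gain4 and 0 were lower, against 4.12% higher and 1.36% lower over all genes. The median was 1.31 (all genes 0), and 48 of 55 had an unadjusted p under 0.05. Mcm2 was at 20.2, 30.2 and 38.1 CPM in regain and 9.47, 10.3 and 14.1 CPM in gain4, a log2 fold change of 1.38 ± 0.28 (adjusted p = 0.0279). The groups did not overlap. Mcm5, Cdt1 and Mcm3 were higher by 1.49 ± 0.35, 1.41 ± 0.30 and 1.23 ± 0.25, Pcna by 1.04 ± 0.25, and 9 of 14 replication genes were called. Rrm2 was at 1.403 ± 0.43 (adjusted p = 0.0569).

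Of the mitosis genes 16 of 26 were higher in regain than in gain4. Kif11, the motor that pushes the spindle poles apart, was at 13.6, 25.2 and 26.5 CPM against 4.63, 4.38 and 12.1 CPM (1.63 ± 0.37, adjusted p = 0.0293). The lowest regain library was only slightly above the highest gain4 library. The kinases Plk1 and Bub1b and the kinetochore gene Ndc80 were higher by 1.54 ± 0.37, 1.19 ± 0.27 and 1.405 ± 0.33, and Ccnb1 by 1.54 ± 0.39. Spc25 (0.30 ± 0.31), Birc5 (0.91 ± 0.33) and Cdk1 (0.90 ± 0.36), which had risen in gain4, were not called. Uhrf1 and Stmn1 were higher by 1.71 ± 0.43 and 0.92 ± 0.24, Mki67 by 1.42 ± 0.37 and Top2a by 1.43 ± 0.38. Foxm1, E2f8 and Ccnd1 were the regulators called, at 1.51 ± 0.36, 1.81 ± 0.48 and 1.88 ± 0.55. E2f1 was level, at 33.6, 32.1 and 32.3 CPM in regain and 36.7, 28.3 and 33.2 CPM in gain4 (-0.00 ± 0.22).

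These calls rested on single libraries. Without regain library 3, gain4 library 1 or gain4 library 2, 0 of the 55 genes were called by edgeR, although 43, 39 and 47 had an unadjusted p under 0.05 and the medians were 1.12, 0.99 and 1.15. Without regain library 2, 7 were called, and without gain4 library 3, 42. Without the filter on low counts 7 were called, and with only these 2 groups in the model 0 (47 at an unadjusted p under 0.05). DESeq2 called 42 and limma on log2(FPKM + 1) 45. Among libraries with high Lars2 the median difference was 1.61 (2 regain libraries against 1 of gain4) and among those with low Lars2 0.76 (1 against 2). Of the macrophage markers 3 were called higher and 1 lower of 17.

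The differences from same-age normal-diet groups were also compared, as regain minus maintenance against gain4 minus control16. This contrast, added after the data were seen, is called the difference of the rises below. Maintenance is a parallel group of the same age and not the state before the second exposure. In the loss group 45 of the 55 genes were still higher than in control12. The regain difference was larger for 27 of 55 genes and smaller for 0. Over all genes 3.24% were higher and 3.20% lower, and 44 of the 55 had an unadjusted p under 0.05. The median was 1.49, with 1.78 over mitosis and 1.07 over replication genes. Cenpf was at 8.27, 13.9 and 12.4 CPM in regain over 1.92, 1.04 and 0.707 CPM in maintenance, and at 3.75, 2.07 and 6.86 CPM in gain4 over 3.97, 2.39 and 2.43 CPM in control16. Its difference of differences was 2.70 ± 0.57 (adjusted p = 0.0381). Ndc80 and Cenpe had 2.34 ± 0.47 and 2.34 ± 0.51, Rrm2 2.23 ± 0.62, Mcm2 1.49 ± 0.39, and Ccnd1 2.66 ± 0.76. Spc25 (0.16 ± 0.45), Birc5 (0.79 ± 0.48), Pcna (0.76 ± 0.36) and Mcm5 (1.36 ± 0.49, adjusted p = 0.0798) were not called. The edgeR count fell to 0 without regain library 3, maintenance library 3, gain4 library 1, gain4 library 2, control16 library 1 or control16 library 2, and to 3 without regain library 2, while 37 to 44 genes then had an unadjusted p under 0.05. It was 0 with the replicate number as a block (43 at an unadjusted p under 0.05) and 0 with only these 4 groups in the model (42), 39 by limma on log2(FPKM + 1) and 32 by DESeq2. Of the macrophage markers 0 of 17 were called, and of the adipocyte markers 2 of 12 were lower.

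**Figure D4:**
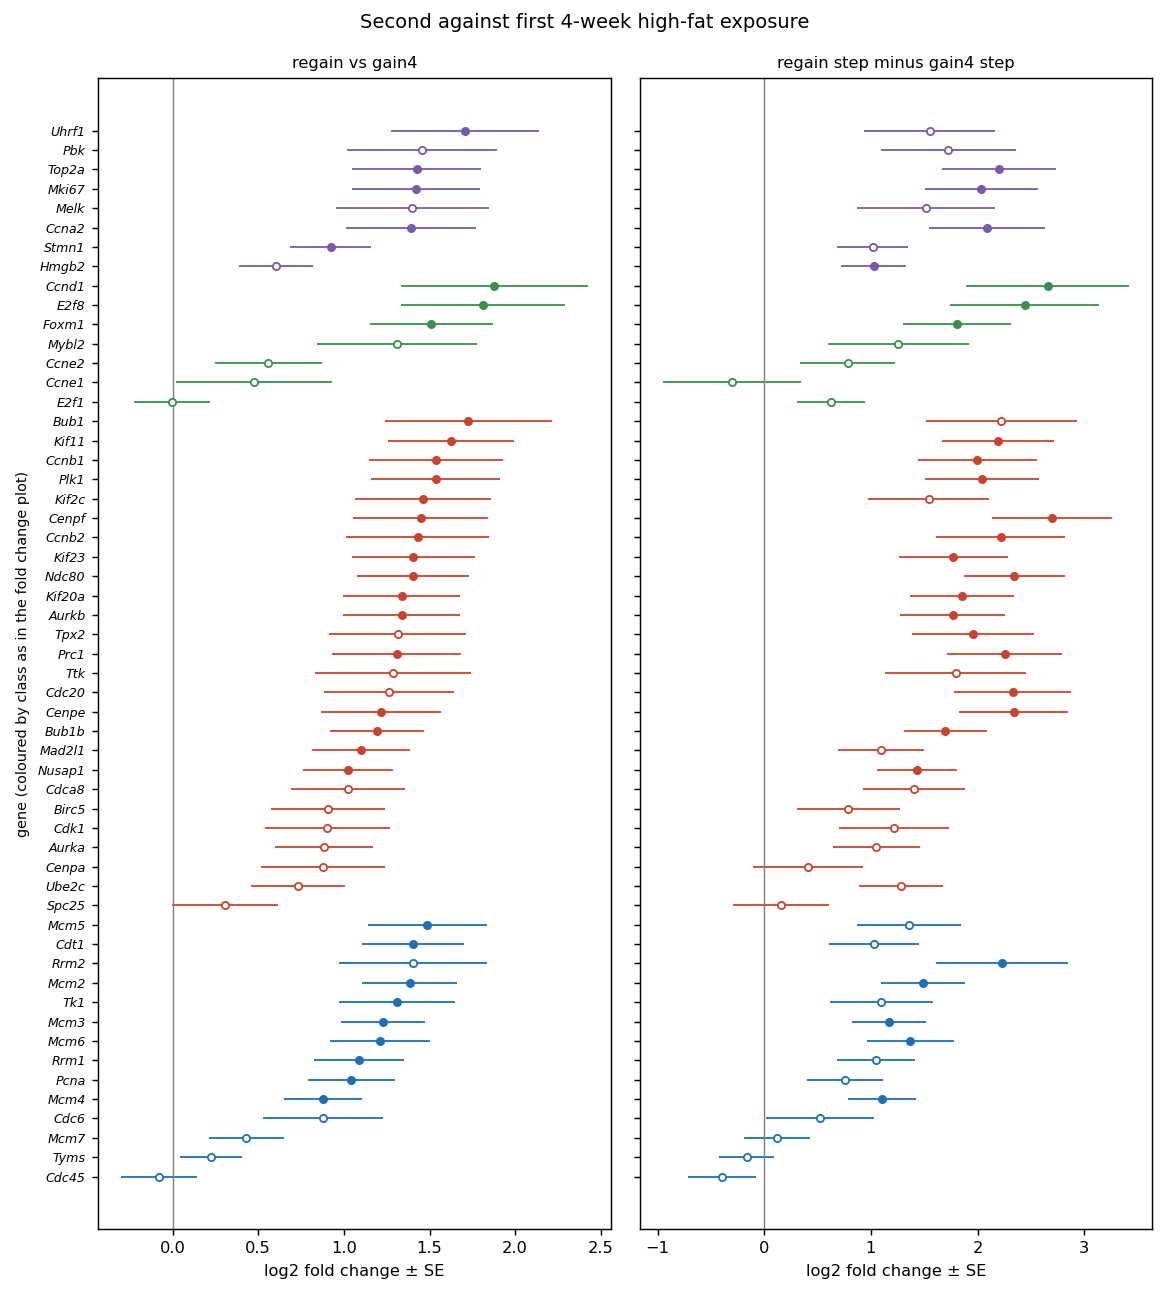
Points are log2 differences with SE bars for the 55 genes, filled where called. The left panel is regain against gain4. The right panel is the regain minus maintenance difference less the gain4 minus control16 difference. Most points lie right of 0 in both panels, and Cdc45, Tyms and Spc25 lie within 0.40 of 0 in both.

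Replication and mitosis genes differed in size of change between the diet phases. In gain8 the median of the mitosis genes was 2.10 and that of the replication genes 1.32, a difference (replication minus mitosis) of -0.78. In regain against control16 it was -0.50 (1.99 against 2.48) and in gain4 -0.25 (0.90 against 1.15). In loss it was 0.16 (1.66 against 1.49), and in maintenance 0.67. No test is given for these differences of medians.

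The same gap can be read in each library as the mean log2 CPM of the 14 replication genes minus that of the 26 mitosis genes. It lay between 1.31 and 1.81 in the 9 control libraries. The gain8 libraries, at 0.85 to 0.98, lay below all of them, and the regain libraries, at 0.87 to 1.21, did so too. The loss libraries, at 1.37 to 1.63, lay within the controls. By class means the sign in loss was the other way from that of the medians, since the gap was 1.52 ± 0.13 in loss and 1.64 ± 0.12 in control12 (mean ± SD, n = 3), a difference within the spread of the libraries. The gain4 libraries ranged from 0.96 to 1.65. Maintenance libraries (1.89 to 2.55) and initial libraries (2.22 to 2.64) lay above the controls, with mitosis means of 0.60 to 1.30 and 0.32 to 0.96 against 1.27 to 1.69 in the controls. Replication means were alike in initial, control and maintenance libraries, from 2.89 to 3.19.

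The direction of the gap depended on the scale. On log2(FPKM + 1) the difference of medians was -0.01 in gain8, 0.05 in gain4, 0.21 in regain and 0.36 in loss. On log2(FPKM + 0.1) it was -0.57, -0.10, -0.30 and 0.13. With only the Mcm genes, Pcna, Rrm1 and Rrm2 as replication genes it was -0.76, -0.37, -0.50 and 0.13. Without loss library 1 the loss value was -0.02, and without gain4 library 3 the gain4 value was 0.06.

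**Figure D5:**
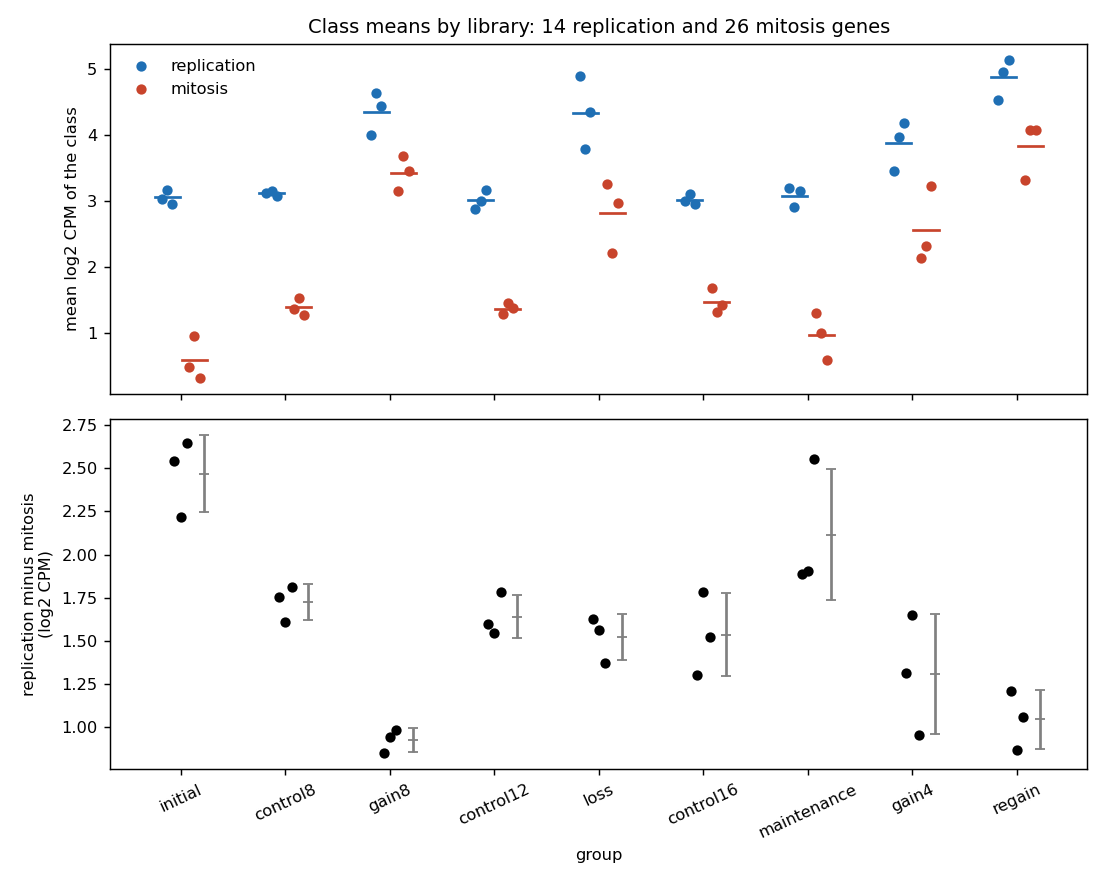
Top, mean log2 CPM of the 14 replication (blue) and 26 mitosis (red) genes in each library, with lines at group means; bottom, their difference per library with group mean and SD. The difference is lowest in gain8 (0.85 to 0.98) and regain (0.87 to 1.21) and highest in maintenance and initial libraries.

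Per unit of length the replication genes were the more abundant class. Their median was 1.91 FPKM in control16 and 9.24 in regain, from the group means of the authors' FPKM, and that of the mitosis genes 0.83 and 4.74. Pcna was the most abundant replication gene in every group (15.6 FPKM in control16, 63.4 in regain). The helicase subunits Mcm2 to Mcm7 act as a hexamer of 1 copy each, and their transcript levels were compared per length. In control16 they ran from 1.79 ± 0.26 FPKM (Mcm5, mean ± SD, n = 3) to 6.77 ± 0.51 (Mcm7), and in regain from 8.83 ± 3.06 (Mcm4) to 15.03 ± 3.61 (Mcm6). Mcm7 itself was at 9.36 ± 1.997 FPKM in regain and at 10.03 ± 1.02 in the initial group.

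Mcm7 and Ccnd1 stood apart from their classes. Mcm7 was called in 0 of the 10 comparisons, with log2 fold changes from -0.35 to 0.43. On chromosome 5 its exons overlap those of Ap4m1 and Cops6 on the opposite strand and contain Mir25 and Mir93. Whether the counting used strand was not stated, so reads of these genes cannot be told apart. Ccnd1, which links growth signals to the start of the cycle, was at 53.9, 81.9 and 109 CPM in regain and 16.0, 20.8 and 29.8 CPM in gain4. It ranged widely within the normal-diet groups (12.6 to 57.8 CPM over the controls). Its adjusted p of 0.0473 in regain against gain4 was close to the threshold. Exon overlaps with opposite-strand genes also apply to Cdc45, Tk1, Plk1, Cdca8, Kif20a, Nusap1, Prc1, Cdc20, Ube2c, Ccnd1, Ccne2, E2f8 and Ccna2. Exons of Foxm1 (with Gm44596 and Tex52), Top2a and Stmn1 overlap genes on the same strand, which counting by strand would not separate, and named pseudogenes exist for Pcna and Ccnb2.

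Other genes of the same machinery, from lists that hold none of the 55, were counted in the same way. Over all genes 12.0% were higher in gain8, 11.8% in loss, 3.80% in gain4 and 12.5% in regain. In regain 9.23% of all genes were lower than in control16, and 4.12% were higher than in gain4. Of 47 further mitosis genes 39 were higher in gain8, 29 in loss, 10 in gain4 and 39 in regain, and 20 were higher in regain than in gain4. Pttg1, securin, was the 1 called lower in regain (-0.82). Incenp, the scaffold of the chromosomal passenger complex, was at 21.7, 33.4 and 25.7 CPM in gain8 against 8.67, 7.74 and 6.75 CPM in control8 (1.80 ± 0.28), and Cdca3 rose by 2.02 ± 0.29. Of 37 further replication genes 16 were higher in gain8, 19 in loss, 10 in gain4 and 25 in regain, where Orc5 (-0.40) was lower. Against gain4, 6 of the 37 were higher in regain. In the difference of the rises 2 of the 37 and 22 of the 47 mitosis genes were higher (3.24% of all genes). The medians of the 37 were 0.49 in gain8, 0.75 in loss, 0.57 in gain4 and 0.98 in regain. Those of the 47 were 1.83, 1.15, 0.94 and 2.05. In loss the replication median was the lower, unlike among the 55 genes (1.66 against 1.49). Gmnn, geminin, which binds and restrains Cdt1, rose in gain8, loss, gain4 and regain against controls, by 2.09 ± 0.33, 2.32 ± 0.34, 1.73 ± 0.33 and 2.39 ± 0.33.

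Of 23 checkpoint and repair genes 11, 10, 5 and 16 were higher in gain8, loss, gain4 and regain, where 12.0%, 11.8%, 3.80% and 12.5% of all genes were. Brca1 was at 10.3, 12.8 and 12.8 CPM in gain8 against 1.60, 1.66 and 1.07 CPM in control8 (3.04 ± 0.52) and rose by 3.79 ± 0.53 in regain. Of 18 cyclins, E2F factors and kinases of the start of the cycle 5, 7, 2 and 8 were higher against the same shares of all genes, Cks2 and Skp2 among them. Ccnd3 was lower in regain (-0.49), where 9.23% of all genes were lower.

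The inhibitors of cyclin-dependent kinases did not move as a group. Of 11 inhibitors and pocket proteins, 3 were higher and 1 lower in gain8, where 12.0% of all genes were higher and 9.52% lower. In regain 4 were higher and 1 lower (all genes 12.5% and 9.23%). In loss 2 were higher and 0 lower (11.8% and 8.24%), and in gain4 1 and 0 (3.80% and 2.02%). Cdkn1a, which encodes p21, was at 197, 145 and 167 CPM in gain8 and 60.0, 103 and 50.6 CPM in control8 (1.25 ± 0.40, adjusted p = 0.0288). Cdkn1a was at -0.16 ± 0.39 in loss, -0.22 ± 0.39 in gain4 and -0.00 ± 0.39 in regain. Cdkn2a rose in gain8 (2.14 ± 0.51) from a mean of 0.286 to 1.27 CPM, and Cdkn1c fell in gain8 by 1.19 and in regain by 1.27 on the log2 scale. Cdkn3, a phosphatase of Cdk1 and Cdk2 that is itself high in dividing cells, rose in gain8, loss, gain4 and regain (1.63, 1.26, 1.63 and 2.47). Cdkn2b and Cdkn2c rose in regain, by 1.28 ± 0.34 and 1.58 ± 0.50, and Cdkn2c was at 1.65 ± 0.50 in gain4 (adjusted p = 0.0534) and at 2.11 ± 0.51 in maintenance on normal diet (adjusted p = 0.0508). Rbl1, the pocket protein p107, was at 20.3, 33.01 and 36.7 CPM in regain and 12.6, 11.7 and 17.1 CPM in gain4 (1.12 ± 0.23, adjusted p = 0.0279). Rbl1 also rose in regain against control16 (1.06 ± 0.23) and in loss (1.09 ± 0.23). Rb1, Rbl2, Cdkn1b and Cdkn2d were not called in these comparisons.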

How the data were processed

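RNA of mouse epididymal fat was sequenced (TruSeq RNA kit, per the labels' protocols) in 27 libraries, 3 in each of 9 groups. Per the submitters' processing notes the authors used Trimmomatic 0.33, TopHat2 2.0.13 and HTSeq 0.6.0 with mm10/GRCm38. Strand setting and annotation are not given in the sources used here. The deposited raw counts (43616 rows, 43460 names, 156 rows that repeat a name left out, the first row kept) were the values tested. The deposited FPKM (22194 rows) served for levels per length and as an alternative scale, with pseudocounts of 1 and 0.1.

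Counts were filtered with filterByExpr (minimum count 10, minimum total 15), leaving 17821 names, and scaled by TMM (factors 0.814 to 1.11). The quasi-likelihood test of edgeR 4.0.16 in R 4.3.3 was fitted to all 27 libraries in 1 model of group means, with Benjamini-Hochberg adjustment within each of 8 comparisons and 2 differences of differences, and a threshold of 0.05. SE is the log2 fold change divided by the square root of F. Class means used log2 CPM with a prior count of 2. Exact permutation of 3 against 3 could not go below p = 0.1 and was not used. DESeq2 1.42.0 and limma 3.58.1 were alternatives, beside RLE scaling, no filter, only the groups compared, the replicate block, a Lars2 term and leaving out libraries. The scripts were tested on simulated data.

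The 55 genes, the gene lists and the rule for genes named were chosen with earlier results of these data known. The rule names, in each comparison, the 3 replication, 4 mitosis, 2 regulator and 2 other genes of smallest adjusted p among those called, 10 genes in every comparison, genes not called where 80% or more are, and 2 genes of each further list; some of these are given by count only, and a few further genes were named after their values were seen. Replicate numbers were not taken as pairs, since correlations of same-numbered deviations ran from -0.181 to 0.378 and 0 of 8 comparisons had every one over 0.1. No 2 libraries agreed within counting noise (chi-square per degree of freedom 11.1 to 491).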

Additional observations from a re-analysis of the deposited data

Results flagged for a closer look

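The regain minus maintenance difference was larger than the gain4 minus control16 difference for 27 of the 55 genes. The test was of the difference itself (edgeR's quasi-likelihood test, adjusted p from 0.0381 to 0.0488). Maintenance is a parallel group of the same age and not the state before the second exposure. The contrast was added after the data were seen. On the log2 scale the mitosis genes gave 1.77 for Aurkb, 1.70 for Bub1b, 1.997 for Ccnb1, 2.22 for Ccnb2, 2.33 for Cdc20, 2.34 for Cenpe, 2.70 for Cenpf, 2.19 for Kif11, 1.86 for Kif20a, 1.77 for Kif23, 2.34 for Ndc80, 1.43 for Nusap1, 2.04 for Plk1, 2.26 for Prc1 and 1.96 for Tpx2. The replication genes gave 1.49 for Mcm2, 1.17 for Mcm3, 1.10 for Mcm4, 1.37 for Mcm6 and 2.23 for Rrm2. The regulators gave 2.66 for Ccnd1, 2.44 for E2f8 and 1.81 for Foxm1, and the remaining genes 2.09 for Ccna2, 1.025 for Hmgb2, 2.04 for Mki67 and 2.20 for Top2a. All 27 adjusted p-values lay close to the threshold, and the number called was 0 without any 1 of 6 libraries.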

How the results depend on the processing

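The number of the 55 genes called, and the difference of class medians (replication minus mitosis), were recomputed under each alternative. RLE scaling left every count within 1.5 times. Without the filter on low counts 7 were called in regain against gain4, 0 in control8 against initial and 8 in the difference of the rises. DESeq2 called 34 in gain4 against control16 and 10 in control8 against initial. With only the groups compared the counts were 28 in loss, 0 in gain4, 0 in regain against gain4, 14 in control8 against initial and 0 in the difference of the rises. Under the replicate block they were 0 in control8 against initial and 0 in the difference of the rises, and no other count moved by over 1.5 times. Without the 3 libraries that stood apart they were 27 in loss, 35 in gain4 and 8 in control8 against initial, and the class difference in maintenance was 0.35. The Lars2 term gave 8 in the difference of the rises. On log2(FPKM + 1) gain4 had 9, or 7 without a filter, on log2(FPKM + 0.1), a scale chosen after seeing the data, 12, and control8 against initial 0 in all 3.

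On log2(FPKM + 1) the class difference was -0.00966 in gain8, 0.25 in maintenance, 0.0452 in gain4, 0.21 in regain against control16, 0.21 in regain against gain4, 0.0181 in regain against maintenance, -0.26 in control8 against initial and 0.0154 in the difference of the rises, and on log2(FPKM + 0.1) it was -0.85 in regain against maintenance. The median mitosis gene was at 0.77 FPKM in control8 and 0.83 in control16, below the pseudocount of 1. The median replication gene was at 2.53 and 1.91. The cause of the change with scale was not tested.

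Leaving out 1 library gave counts of 44 to 50 in gain8, 30 to 47 in loss, 0 to 1 in maintenance, 0 to 28 in gain4, 50 to 52 in regain, 0 to 42 in regain against gain4, 51 to 54 in regain against maintenance, 0 to 0 in control8 against initial, 0 to 0 in loss minus gain8 and 0 to 39 in the difference of the rises. The class difference ranged from -0.84 to -0.66, -0.016 to 0.28, 0.35 to 0.79, -0.34 to 0.0610, -0.57 to -0.37, -0.39 to 0.0289, -1.26 to -0.93, -1.09 to -0.76, 0.61 to 0.81 and -1.10 to -0.55 in the same order.

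Of the values of single genes under all alternatives 2389 kept direction and call, 348 lost the call, 41 gained it and 36 changed sign. Sign changes without the 3 libraries were Mcm5 (-0.13) and Cdk1 (0.15) in maintenance and Pcna (-0.0491) in loss minus gain8. With the Lars2 term they were E2f1 in regain against gain4 (0.0894) and Ccnd1 in control8 against initial (0.21). On log2(FPKM + 1), with or without a filter, they were Mcm5 in maintenance (-0.0025), E2f1 in regain against gain4 (0.0880) and E2f1 in loss minus gain8 (0.0495), and on log2(FPKM + 0.1) these 3 (-0.0053, 0.0959 and 0.0544) and Birc5 in maintenance (-0.10). The others came from leaving out 1 library.

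Where leaving out 1 library changed the sign of a gene named in the text, its log2 values had the ranges that follow. In control8 against initial the values ran for Ccnd1 from -0.88 to 0.13. In loss minus gain8 the values ran for Rrm2 from -0.72 to 0.26, Ccnd1 from -0.13 to 0.98, Pcna from -0.0451 to 0.79, Mcm5 from -0.000503 to 0.77, Top2a from -0.53 to 0.0684 and E2f1 from -0.25 to 0.0761. In gain8 the values ran for Ccnd1 from -0.0197 to 0.99. In regain against gain4 the values ran for E2f1 from -0.0887 to 0.0283. In maintenance the values ran for Birc5 from -0.41 to 0.51, Mcm5 from -0.12 to 0.29 and Cdk1 from -0.63 to 0.17.

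Depth was similar in all libraries (26479773 to 32728594 counts).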
